A study of Mus musculus with 16 samples.

Results

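The CCN family comprises secreted matricellular proteins, which sit in the extracellular matrix and act on cells rather than building fibers. Its members here were taken by name, as the 5 genes Cyr61, Ctgf, Nov, Wisp1 and Wisp2, now named Ccn1 to Ccn5, of the 38926 gene names in the table of metaphyseal and marrow endothelium, the 38922 in the Lats2 table and the 21603 in the Yap1/Taz files. All 5 were found in all 16 libraries. The libraries hold RNA of endothelial cells (ECs) sorted from the bones of 3-week-old mice with the strain background C57BL/6. The methods combine the sexes within groups but name male C57BL/6J mice for wild-type bone, and the sex behind single libraries is not given in the sources used here. The first set has 3 libraries of metaphyseal ECs (mpECs) and 3 of ECs of the marrow cavity in the diaphysis (bmECs). Both carry the Cdh5-mT/nG reporter, which marks ECs through the Cdh5 promoter, and the labels call them wildtype. The second set has 3 control libraries of the genotype Yap1flx/flx; Wwtr1flx/flx without Cdh5CreERT2 and 3 libraries labelled as the same floxed alleles with Cdh5CreERT2, called Yap1/Taz iΔEC, all from postnatal day 21. The third has 2 control libraries of Lats2flx/flx mice without Cdh5CreERT2 and 2 with it, called Lats2 iΔEC. Cdh5CreERT2 is a Cre recombinase that the Cdh5 promoter expresses in ECs and that works after tamoxifen, so recombination need not reach every EC. The controls were littermates with the floxed alleles but without Cre. Nothing in the labels ties a library to a single animal, so p-values measure the spread between these libraries.

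CCN proteins bind integrins, heparan sulfate proteoglycans and LRP receptors, and through them influence adhesion, migration and matrix production. Cyr61 and Ctgf are widely used readouts of YAP1 and TAZ, transcriptional coactivators that work with TEAD factors on DNA. The kinases LATS1 and LATS2 of the Hippo pathway phosphorylate YAP1 and TAZ and thereby keep them out of the nucleus. Both genes also respond within minutes to serum, mechanical strain and cell isolation, Ctgf responds to TGF-beta, and Wisp1 was named as a Wnt-induced gene with a place in osteoblast biology.

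The region before the start of Cyr61 is shown because TEAD factors are the DNA partners of YAP1 and TAZ. Of the 5 members, only Cyr61 had an entry in the promoter table used here, whose sequences come from RefSeq on GRCm38.p6, so Ctgf, Nov, Wisp1 and Wisp2 are named only. The 250 bases before its start lie on the minus strand at chr3:145649986-145650235. Capitals mark the TEAD core GGAATG, which reads CATTCC on the strand shown, 103 to 98 bases before the start.
Cyr61: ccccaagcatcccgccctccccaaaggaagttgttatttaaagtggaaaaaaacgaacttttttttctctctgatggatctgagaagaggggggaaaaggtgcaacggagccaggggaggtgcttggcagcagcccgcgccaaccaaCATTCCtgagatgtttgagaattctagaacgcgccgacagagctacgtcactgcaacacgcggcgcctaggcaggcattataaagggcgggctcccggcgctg
On both strands, GGAATG occurred in 12.6% of 27025 promoters of this length. The AP-1 letters TGANTCA occurred in 6.87%, the SMAD letters GTCTAGAC in 0.174% and the CArG box of SRF in 1.40%, and none of these had a match in the Cyr61 window. A match describes letters and does not show a bound site.

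The genes lie on 4 chromosomes of GRCm38. Cyr61 is on the minus strand of chromosome 3 (145646976 to 145649981, 2019 exon bases), and Ctgf on the plus strand of chromosome 10 (24595442 to 24598683, 2861 exon bases). Nov (54745702 to 54754039) and Wisp1 (66891320 to 66923201) are both on the plus strand of chromosome 15, and Wisp2 is on that of chromosome 2 (163820861 to 163833146). Exons of Gm15270, a gene on the minus strand, cover 23.2% of the exon bases of Ctgf, and 32.4% of the exon bases of Gm15270 lie in Ctgf. Whether counting used strand is not given in the sources used here, so reads from the shared bases cannot be told apart. The other 4 members overlap no exon of another gene.

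Values are FPKM, fragments per kilobase of gene scaled to the size of the library. Reads recovered from the FPKM steps totalled 11557001 to 15436690 per library for mpECs and bmECs, 4889945 to 7162965 for Yap1/Taz and 4876352 to 7338183 for Lats2. Summed FPKM of 12 endothelial markers, among them Pecam1 and Cdh5, was 2116 to 2747 in mpECs and 2905 to 3318 in bmECs, 807 to 881 in the Yap1/Taz controls and 1018 to 1192 in the labelled libraries, and 6263 to 6473 in the Lats2 controls and 5548 to 5622 in Lats2 iΔEC, so no pair of groups overlapped. Blood cell RNA was also present, with a sum of 13 markers of 25857 to 52499 FPKM in the first set, 5002 to 8310 in the second and 620 to 4379 in the third. Of the targeted genes in the Yap1/Taz set, Yap1 showed no call and Wwtr1 went against the label. Yap1 was 1.23 ± 0.339 FPKM (SD, n = 3) in controls and 1.15 ± 0.245 (SD, n = 3) in the libraries labelled Yap1/Taz iΔEC (limma adjusted p = 0.934). Wwtr1, which encodes TAZ, was 10.1 ± 0.240 in controls and higher, at 18.1 ± 2.48 FPKM, in the labelled libraries (adjusted p = 0.0272). Lats2 was 23.4 and 24.0 FPKM in its controls and 19.2 in both Lats2 iΔEC libraries (log2 fold change -0.29, adjusted p = 0.125). By quantitative PCR, the authors report lower Yap1 and Wwtr1 transcripts in bone ECs of Yap1/Taz iΔEC mice. They also report weaker Yap1 immunostaining in the bone vessels of these mice. Gene-level values pool all exons, and which exons the floxed alleles remove is not given in the sources used here.

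Cyr61 or Ctgf was the highest member in every group in FPKM, which compares genes per length. In mpECs the order was Cyr61 (40.9 to 67.6 FPKM), then Wisp1 (5.92 to 7.04), then Nov (1.40 to 1.95), Ctgf (1.44 to 1.86) and Wisp2 (0.625 to 1.82), whose ranges overlapped. In bmECs it was Cyr61 (30.8 to 113 FPKM), then Ctgf (0.861 to 2.38), Wisp2 (0.884 to 1.41) and Nov (0.296 to 1.18) with overlapping ranges, and Wisp1 (0.0881 to 0.400) last, whose range overlapped that of Nov. In the Yap1/Taz controls Ctgf (11.7 to 22.4 FPKM) and Cyr61 (11.2 to 15.97) overlapped, Wisp2 (1.28 to 1.43) came next, and Wisp1 (0.448 to 0.802) and Nov (0.113 to 1.16) overlapped below it. In the Lats2 controls Ctgf (47.1 to 68.3 FPKM) lay above Cyr61 (28.3 to 44.3), Nov (2.38 to 2.99) and Wisp1 (2.59 to 2.68) overlapped, and Wisp2 (0.175 to 0.418) was last. In Lats2 iΔEC, Cyr61 (316 to 537 FPKM) and Ctgf (264 to 469) overlapped, Wisp1 (8.31 to 11.1) came next, then Nov (6.51 to 7.67) and Wisp2 (1.25 to 1.51). In the libraries labelled Yap1/Taz iΔEC, Cyr61 (14.996 to 23.0 FPKM) overlapped Ctgf (4.78 to 16.2), and Wisp2 (1.11 to 2.22) lay above Wisp1 (0.621 to 0.861) and Nov (0.417 to 0.982), which overlapped. Wisp3, the remaining relative of the family and no member here, was at most 0.283 FPKM in any library.

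**Figure D1:**
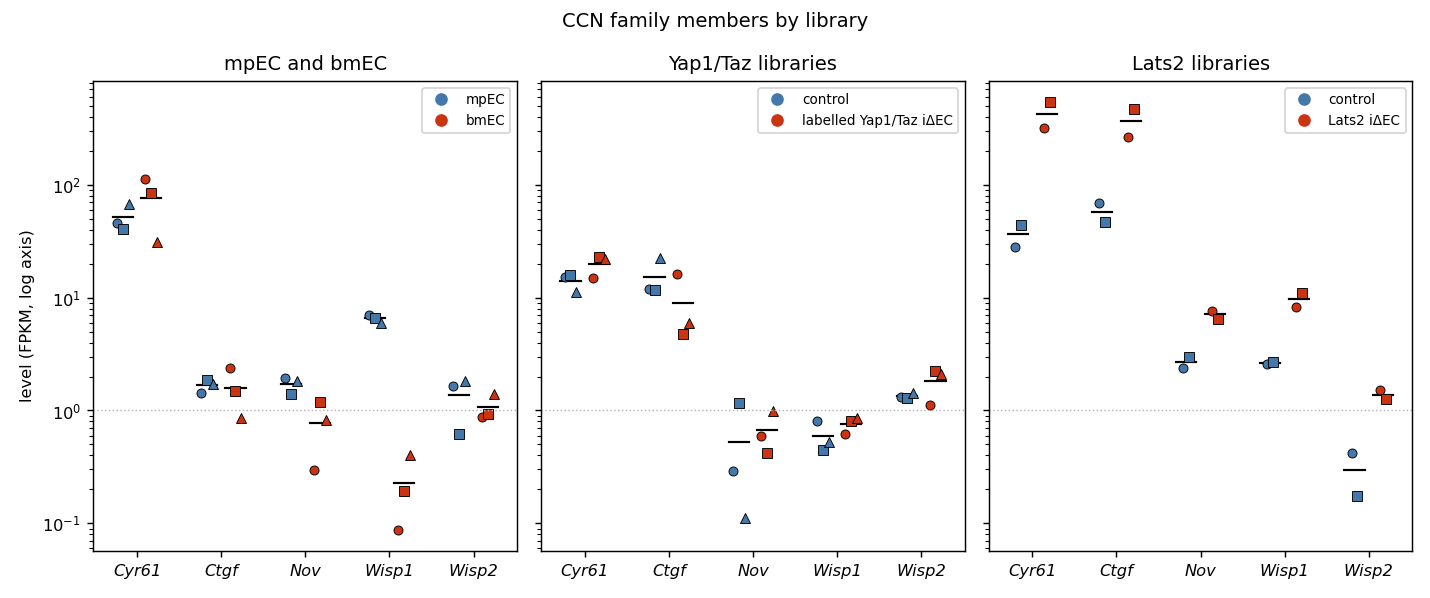
FPKM of the 5 members in each of the 16 libraries on a log axis, with 1 panel per table. Points are libraries (circle, square and triangle for replicates 1, 2 and 3), black bars are group means and the dotted line is 1 FPKM. All 5 members are higher in both Lats2 iΔEC libraries than in both controls, and Wisp1 falls from 5.92 to 7.04 FPKM in mpECs to at most 0.400 in bmECs.

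The balance between Cyr61 and Ctgf differed between the tables. The ratio of the 2 genes' FPKM does not depend on library scaling. Cyr61 was 22.0 to 39.1 times Ctgf in the mpEC libraries and 35.8 to 57.2 times in the bmEC libraries. Ctgf rested on only 29 to 56 reads per library there. In the Yap1/Taz controls it was 1.26, 1.36 and 0.502 times Ctgf, and in the Lats2 controls 0.415 and 0.939 times. All ratios of the first table thus lay above those of the controls in the other 2 tables. Sorting, mouse line and table change together between these sets and cannot be told apart, so no test was made across them. Within each table the log2 ratio of Ctgf to Cyr61 was compared by an exact two-sided permutation test. By that exact permutation test, the difference of group means was -0.61 for bmECs minus mpECs (p = 0.2), -1.42 for the labelled Yap1/Taz iΔEC minus control (p = 0.3) and -0.91 for Lats2 iΔEC minus control (p = 0.333). The smallest p these designs allow is 0.1 with 3 libraries a group and 0.333 with 2, so none could pass 0.05.

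**Figure D2:**
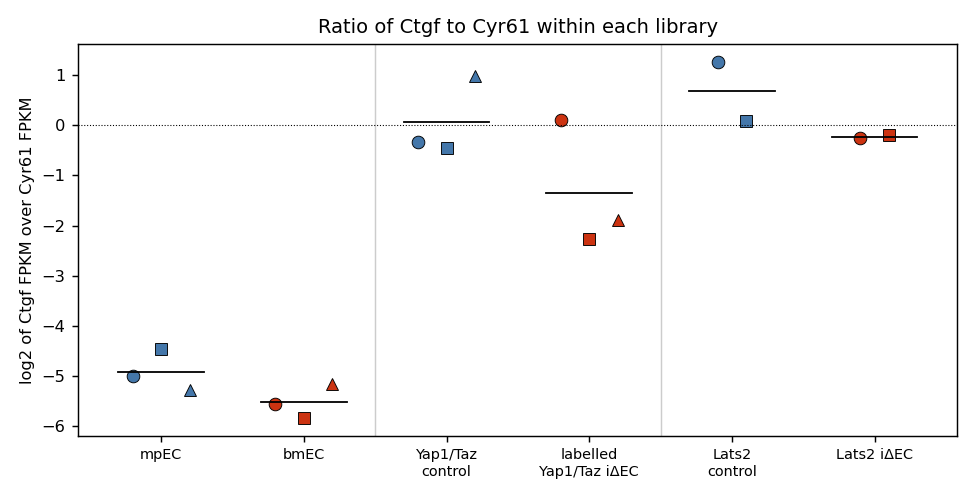
Log2 of Ctgf FPKM over Cyr61 FPKM in each library, by group (circle, square and triangle for replicates 1, 2 and 3; black bars are means; the dotted line marks equal levels). The mpEC and bmEC libraries lie between -5.84 and -4.46, and the libraries of the other 2 tables between -2.27 and 1.27.

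The Lats2 comparison asks what the members do when a kinase restraining YAP1 and TAZ is targeted in ECs, and there 4 of 4 members tested rose. Cyr61 rose 11.7-fold and Ctgf 6.35-fold in mean FPKM, and Wisp1 and Nov rose 3.68-fold and 2.64-fold. The authors also report higher Cyr61 and Ctgf in Lats2 iΔEC ECs by RNA sequencing. In sorted cells they report a stronger rise in type L than in type H ECs. Type L ECs line the sinusoids of the diaphysis, and type H ECs the vessels of the metaphysis and endosteum. A call is an adjusted p under 0.05 from limma on log2(FPKM + 1), with Benjamini-Hochberg adjustment over all genes that averaged 1 FPKM or more in the comparison. Of the 12451 genes tested, 11.8% were called higher and 9.98% lower. All 4 members had at least 1 FPKM in both controls, so none entered the test through the Lats2 iΔEC libraries alone.

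Cyr61, an integrin ligand with roles in vessel growth, was 28.3 and 44.3 FPKM in control replicates 1 and 2, and 316 and 537 FPKM in Lats2 iΔEC replicates 1 and 2. Both Lats2 iΔEC libraries were thus far above both controls. The log2 fold change was 3.50 (SE 0.32, 95% interval 2.68 to 4.32, adjusted p = 0.00809), the 14th highest of all genes tested. Among all genes of a library, Cyr61 ranked 2427 and 1498 by FPKM in the controls and 135 and 73 in the Lats2 iΔEC libraries.

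Ctgf, a matrix-associated factor of fibrotic and growth responses, was 68.3 and 47.1 FPKM in the controls and 264 and 469 FPKM in the Lats2 iΔEC libraries. Its log2 fold change was 2.61 (SE 0.32, 95% interval 1.80 to 3.42, adjusted p = 0.0113), the 53rd highest. The overlapping Gm15270 was 42.9 and 26.1 FPKM in the controls and 147 and 253 FPKM in the Lats2 iΔEC libraries, which is 2.49 on the log2 scale (SE 0.34, adjusted p = 0.0131). Ordered by level, the 4 libraries ranked alike for both genes. In the mpEC and bmEC libraries, where Ctgf was low, Gm15270 was 0.251 to 0.566 FPKM, from 5 to 11 reads.

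Wisp1, a Wnt-induced member, was 2.59 and 2.68 FPKM in the controls and 8.31 and 11.1 FPKM in the Lats2 iΔEC libraries (log2 fold change 1.54, SE 0.18, 95% interval 1.08 to 2.01, adjusted p = 0.0106). Nov, a member known for its interplay with Notch1, was 2.38 and 2.99 FPKM in the controls and 7.67 and 6.51 FPKM in the Lats2 iΔEC libraries (log2 fold change 1.14, SE 0.18, 95% interval 0.69 to 1.58, adjusted p = 0.0162). Both groups were separate for each gene, but these values rest on fewer reads, with 34 to 93 for Nov and 72 to 307 for Wisp1 per library. Wisp2, which lacks the C-terminal domain of its relatives, had a mean under 1 FPKM and was not tested. It was 0.418 and 0.175 FPKM in the controls, from 4 and 2 reads, and 1.51 and 1.25 FPKM in the Lats2 iΔEC libraries, from 11 and 12 reads. With no filter on low values its adjusted p was 0.0664. Groups that do not overlap, as for all 5 members here, were found in the higher direction in 34.0% of all genes tested, which limits what separation of 2 against 2 libraries says.

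**Figure D3:**
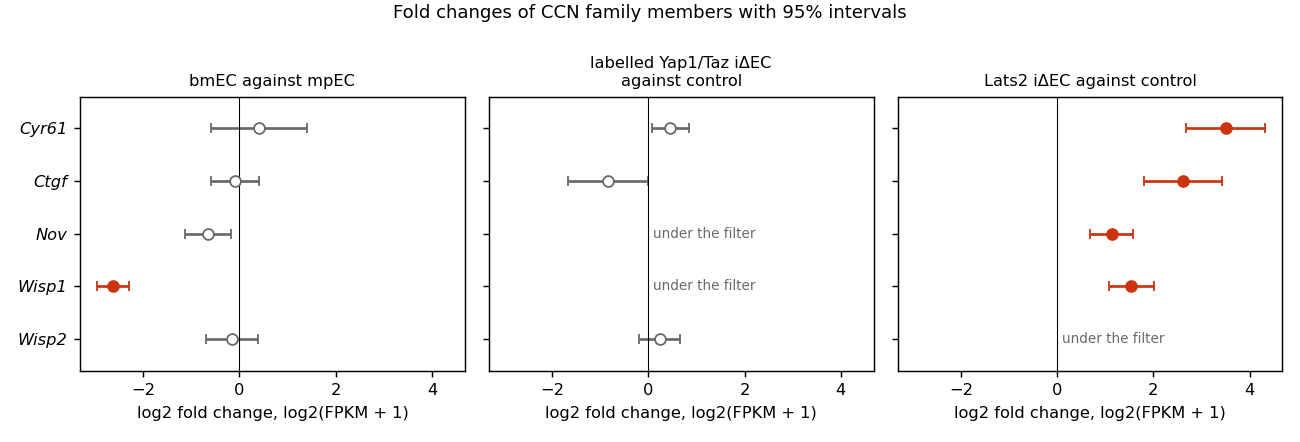
Log2 fold changes of the tested members in the 3 comparisons with 95% intervals from limma, on the log2(FPKM + 1) scale. Filled red points have an adjusted p under 0.05, open gray points do not, and members with a mean under 1 FPKM are named as under the filter. The 4 members tested in the Lats2 set lie between 1.14 and 3.50, and the intervals of Cyr61, Ctgf and Wisp2 in bmECs against mpECs include 0.

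With 2 libraries a group, the calls depended on both controls. Without Lats2 control replicate 1 or without Lats2 control replicate 2, the log2 fold changes of the 4 members stayed between 1.02 and 3.81, with adjusted p from 0.110 to 0.148, where the lone control is assumed to vary like the other group. Without Lats2 iΔEC replicate 2, Nov had an adjusted p of 0.0544.

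Other genes of the pathway were taken from lists drawn from general knowledge, and are read beside the 11.8% of all genes called higher and the 9.98% called lower. Of 16 other YAP/TAZ target genes tested, 5 rose and 1 fell, with a median log2 fold change of 0.43. The median over all genes was near 0, at -0.0031. Myof, a membrane repair protein, had a log2 fold change of 3.25 (adjusted p = 0.00759) and the growth factor gene Tgfb2 one of 2.97 (adjusted p = 0.0105), while Axl, a receptor tyrosine kinase, fell by 2.10 (adjusted p = 0.00655). Of 16 Hippo kinases, YAP/TAZ and TEAD factors tested, 2 passed the test and rose, a share near that of all genes, and the median was -0.17. Those were Amotl2, a scaffold that binds YAP1 (log2 fold change 0.88, adjusted p = 0.0131), and Wwtr1, from 56.3 to 87.9 FPKM (0.63, adjusted p = 0.0257). Yap1 was 2.14 FPKM in controls and 2.04 in Lats2 iΔEC (adjusted p = 0.876). Of 12 CCN receptors tested, only Itgb1, the integrin beta 1 chain, passed the test, and it rose (0.61, adjusted p = 0.0329).

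Inputs that act on Cyr61 and Ctgf by other routes were also counted. Of 12 SRF and MRTF linked actin genes tested, 7 rose, with a median of 0.89, led by the smooth muscle actin gene Acta2 (2.36, adjusted p = 0.0208), the LIM domain gene Fhl2 (2.29, adjusted p = 0.0138) and the myosin light chain gene Myl9 (2.12, adjusted p = 0.0115). Of 13 TGF-beta pathway genes tested, 3 rose, among them Tgfb2 and Tgif1, a repressor of SMAD activity (1.04, adjusted p = 0.0135), with a median of 0.12. Immediate early genes, which cells switch on within minutes of stress or growth signals, gave 1 call in 12, Atf3 (1.22, adjusted p = 0.0358). Their summed FPKM was 855 and 1078 in the controls and 1116 and 985 in the Lats2 iΔEC libraries, so the groups overlapped.

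Markers of other cells moved in this comparison too. The summed FPKM of 10 mural and stromal markers was 44.6 and 55.7 in the controls and 89.1 and 110 in the Lats2 iΔEC libraries, and 4 of 7 tested rose, led by Acta2, Tagln (1.92, adjusted p = 0.0184) and Rgs5, a pericyte gene (1.53, adjusted p = 0.0389). Acta2 and Tagln also counted among the SRF and MRTF linked genes that rose, so these lists are not separate observations. Among the defining markers in the controls against the Lats2 iΔEC libraries, Pdgfrb was 0.587 and 0.215 against 1.69 and 3.63 FPKM, Cspg4 was 0 and 0.104 against 0.263 and 0.624, Pdgfra was 0.268 and 0.0998 against 0.0787 and 0.149, and Myh11 was 0.212 and 0.203 against 0.360 and 0.151. Of the stromal genes, Cxcl12 was 22.2 and 29.8 against 40.1 and 41.4 FPKM and passed the test narrowly (0.64, adjusted p = 0.04999). Lepr and Adipoq did not pass it. Lepr was 6.84 and 6.39 against 7.52 and 8.12 FPKM, and Adipoq was 7.42 and 6.33 against 3.26 and 0.436. Blood cell markers summed to 4379 and 3142 FPKM in the controls and 1681 and 620 in the Lats2 iΔEC libraries, and 5 of 13 fell. Osteoblast markers summed to 84.9 and 13.9 FPKM in the controls and 43.6 and 69.4 in the Lats2 iΔEC libraries, groups that overlapped. Of 6 tested, 1 was called, Spp1, a matrix phosphoprotein that other cells also make, which was 6.83 and 3.57 FPKM in the controls and 25.9 and 53.9 in the Lats2 iΔEC libraries (2.68, adjusted p = 0.0161), while Col1a1 was 44.9 and 1.90 against 6.46 and 6.09 FPKM. Gm23935, the most abundant gene in all 4 libraries, was 6093 and 7629 FPKM in the controls and 15846 and 26667 in the Lats2 iΔEC libraries. The part of these markers in the changes of the CCN genes was not tested.

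The comparison of bmECs with mpECs asks how the members differ between vessels of the marrow cavity and of the metaphysis, and there Wisp1 was the 1 of 5 members called. It was 28.8-fold lower in bmECs in mean FPKM. Cyr61, Ctgf and Wisp2 overlapped between the groups, and Nov was lower in every bmEC library without passing the test. Of 11422 genes tested, 13.0% were called higher in bmECs and 10.5% lower.

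Wisp1 was 7.04, 6.65 and 5.92 FPKM in mpEC replicates 1 to 3, from 484, 369 and 320 reads, and 0.0881, 0.192 and 0.400 FPKM in bmEC replicates 1 to 3, from 4, 10 and 26 reads. The mpEC libraries were close to each other, and all bmEC libraries were far under them. The log2 fold change was -2.62 (SE 0.14, 95% interval -2.95 to -2.30, adjusted p = 2.785e-05), the 40th lowest of all genes tested. This scale understates the fall of a gene near 0 FPKM, and limma-voom on the recovered reads gave -4.96 (adjusted p = 3.4745e-05). Wisp1 passed the filter through the mpEC libraries alone. Markers of bone-forming cells fell beside it. The 10 osteoblast markers summed to 1001, 465 and 260 FPKM in mpEC replicates 1 to 3 and to 49.4, 60.9 and 45.6 in bmEC replicates 1 to 3. Of 8 tested, 6 were called lower, led by Bglap (log2 fold change -5.53), Col1a1 (-4.99) and Bglap2 (-4.97). Most of the bmEC sums was Ibsp, at 38.8, 46.8 and 38.4 FPKM. Ibsp was 106, 40.6 and 32.8 FPKM in mpECs, so its groups overlapped. The 9 chondrocyte markers summed to 26.6 to 30.8 FPKM in mpECs and 0.0682 to 0.252 in bmECs, with 5 of 5 tested called lower and Col2a1 at 0 in all bmEC libraries. Their part in the Wisp1 difference was not tested. In sorted bulk samples, fewer cells of a type and less RNA per cell cannot be told apart.

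Nov was 1.95, 1.40 and 1.83 FPKM in the mpEC libraries and 0.296, 1.18 and 0.829 FPKM in the bmEC libraries, from 7 to 32 reads in bmECs. Its highest bmEC value lay just under its lowest mpEC value. The log2 fold change was -0.65 (SE 0.21, 95% interval -1.14 to -0.17, adjusted p = 0.0590), which missed the threshold. It passed with limma-voom on the recovered reads (-1.29, adjusted p = 0.0489) and without bmEC replicate 2 (-0.82, adjusted p = 0.0375), the bmEC library where Nov was highest. The mean of Nov was 1.72 FPKM in mpECs and 0.768 in bmECs, so it met the filter at 1 FPKM through the mpEC libraries. A lower range that did not overlap was found for 19.2% of all genes tested.

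Cyr61 was 46.0, 40.9 and 67.6 FPKM in the mpEC libraries and 113, 84.6 and 30.8 FPKM in the bmEC libraries, so the spread in bmECs covered the whole mpEC range. The interval of its log2 fold change ran from -0.60 to 1.40, and the value without bmEC replicate 3 was 0.94 (adjusted p = 0.0308). Immediate early genes varied in the same libraries, with a summed FPKM of 1055, 1066 and 1514 in mpEC replicates 1 to 3 and of 3261, 3889 and 1201 in bmEC replicates 1 to 3. In this list 3 of 13 tested were called higher in bmECs, beside 13.0% of all genes. They were Jun (1.31, adjusted p = 0.0463), Ier3 (1.29, adjusted p = 0.0135) and Junb (1.11, adjusted p = 0.00440), which encode transcription factor subunits and a stress response protein. The part of these genes in the Cyr61 values was not tested.

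Ctgf was 1.44, 1.86 and 1.73 FPKM in the mpEC libraries and 2.38, 1.48 and 0.861 FPKM in the bmEC libraries, with a log2 fold change of -0.10 (95% interval -0.60 to 0.41, adjusted p = 0.788) that became 0.12 without bmEC replicate 3. The Ctgf values rest on 48 to 53 reads in mpECs and 29 to 56 in bmECs. As for Cyr61, bmEC replicate 1 was the highest and bmEC replicate 3 the lowest library. Wisp2 was 1.64, 0.625 and 1.82 FPKM in the mpEC libraries and 0.884, 0.934 and 1.41 FPKM in the bmEC libraries, with a log2 fold change of -0.15 (95% interval -0.69 to 0.38, adjusted p = 0.675), and its groups overlapped.

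Other YAP/TAZ target genes went both ways between the vessel types, with 2 called higher and 4 lower in bmECs of 13 tested. The list counts here are read beside the 13.0% of all genes called higher in bmECs and the 10.5% called lower. With so few genes per list, counts near those shares do not set a list apart. Igfbp3, which encodes an IGF binding protein, fell by 2.82 on the log2 scale (adjusted p = 0.00035), Axl rose by 2.06 (adjusted p = 0.000124), and Nt5e, the ectoenzyme CD73, fell by 1.13 (adjusted p = 0.00253). Among 11 CCN receptors tested, 2 were higher and 3 lower, with the syndecan gene Sdc4 at 0.83 (adjusted p = 0.0163) and the integrin chain genes Itga5 at -0.72 (adjusted p = 0.0209) and Itga6 at -0.70 (adjusted p = 0.0284). Of 15 Hippo kinases, YAP/TAZ and TEAD factors, 1 was higher and 2 lower. Those were Stk3, the kinase MST2 (0.35, adjusted p = 0.0195), Vgll4, a TEAD cofactor that competes with YAP1 (-0.67, adjusted p = 0.00740), and Tead2 (-0.67, adjusted p = 0.0205).

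**Figure D4:**
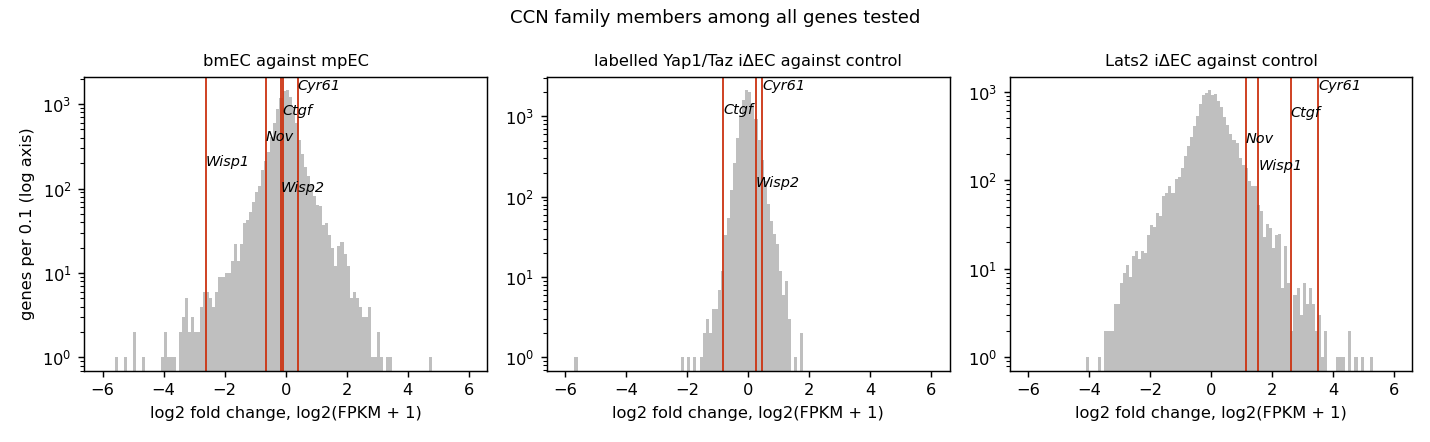
Histograms of the log2 fold changes of all genes tested in each comparison, in bins of 0.1 with the number of genes on a log axis, and red lines at the tested CCN members. In the Lats2 panel the 4 members lie in the upper flank from 1.14 to 3.50, and in the bmEC panel Wisp1 lies at -2.62.

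In the libraries labelled Yap1/Taz iΔEC no member passed the test by limma, and the groups of all 5 members overlapped. A direction here goes with a label that the levels of Yap1 and Wwtr1 in these libraries do not bear out. In separately sorted ECs of Yap1/Taz iΔEC mice, the authors report lower Ctgf and Cyr61, with a stronger loss in type L than in type H. Of 11320 genes tested, 0.883% were called higher and 0.424% lower, so few genes of any kind passed. Of the 3 members tested, 1 (Cyr61) had an unadjusted p under 0.05, as did 17.9% of all genes tested, and limma-voom on the recovered reads called none of the 3 and 3.41% of all genes.

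Ctgf was 12.003, 11.7 and 22.4 FPKM in control replicates 1 to 3 and 16.2, 4.78 and 5.91 FPKM in labelled Yap1/Taz iΔEC replicates 1 to 3. Labelled replicates 2 and 3 were under every control, and labelled replicate 1 lay inside the control range. The log2 fold change was -0.83 (SE 0.37, 95% interval -1.66 to 0.0034, adjusted p = 0.282), the 33rd lowest of all genes tested. Without labelled replicate 1 it was -1.31 (adjusted p = 0.0338). Wwtr1 was also nearer to the controls in that library, at 15.3 FPKM against 19.6 and 19.5 in the other two. The summed FPKM of the 10 osteoblast markers was 44.5, 42.2 and 61.8 in control replicates 1 to 3 and 31.4, 13.2 and 15.3 in labelled replicates 1 to 3. The highest of each group was therefore the same library as for Ctgf, and 3 of 7 osteoblast markers tested, Col1a1, Bglap2 and Bglap, fell by the test. The sum of 10 mural and stromal markers was 18.4 to 21.4 FPKM in controls and 17.5 to 20.9 in the labelled libraries. Blood cell markers summed to 8310 FPKM in labelled replicate 1, against 5002 and 5243 in the other two and 5172 to 6380 in the controls, and endothelial markers to 1018 FPKM in it, against 1152 and 1192. The part of these markers in the Ctgf and Cyr61 values was not tested.

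Cyr61 was 15.2, 15.97 and 11.2 FPKM in the controls and 14.996, 23.0 and 21.8 FPKM in the labelled libraries. Labelled replicate 1 again lay inside the control range, and the other two were above it. The log2 fold change was 0.46 (SE 0.18, 95% interval 0.07 to 0.85, adjusted p = 0.204), and without labelled replicate 1 it was 0.64 (adjusted p = 0.0654). Immediate early genes summed to 2768 to 2926 FPKM in the controls and to 2883, 3565 and 3779 in labelled replicates 1 to 3, and none of 14 tested passed limma's test, while 5 had an unadjusted p under 0.05 and limma-voom on the recovered reads called 3.

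The summed level of the 5 members overlapped between the groups. It was 29.6 to 35.7 FPKM in the controls and 31.3 to 33.6 in the labelled libraries. The share of Ctgf in it was 40.6%, 38.3% and 62.7% in the controls and 48.4%, 15.3% and 18.7% in labelled replicates 1 to 3. The share of Cyr61 was 51.3%, 52.2% and 31.5% in the controls and 44.7%, 73.7% and 68.9% in the labelled libraries. In the Lats2 set the sum was 102 and 97.2 FPKM in the controls and 597 and 1024 in the Lats2 iΔEC libraries.

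The groups of the 3 low members overlapped in the Yap1/Taz set. Wisp2 was 1.31, 1.28 and 1.43 FPKM in the controls and 1.11, 2.22 and 2.10 FPKM in the labelled libraries (log2 fold change 0.24, 95% interval -0.19 to 0.67, adjusted p = 0.555), from 10 to 25 reads. Nov, at 0.294, 1.16 and 0.113 FPKM against 0.597, 0.417 and 0.982 FPKM, and Wisp1, at 0.802, 0.448 and 0.527 FPKM against 0.621, 0.806 and 0.861 FPKM, were under the filter and overlapped between the groups. With no filter their adjusted p-values were 0.796 and 0.613. These values rest on 2 to 23 reads for Nov and 16 to 27 for Wisp1.

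Around the members, 13 other YAP/TAZ target genes, 13 CCN receptors, 10 SRF and MRTF linked genes and 11 TGF-beta pathway genes were tested in the Yap1/Taz set, and limma called none of them. At an unadjusted p under 0.05 there were 2, 0, 0 and 4 in these lists, beside 17.9% of all genes, and limma-voom called 0, 0, 0 and 3, beside 3.41% of all genes. Among the 16 Hippo kinases, YAP/TAZ and TEAD factors tested, only Wwtr1 passed, and limma-voom called 2. Whether the members responded differently to the 2 genotypes was not tested, since the tables were normalized separately.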

How the data were processed

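The authors sorted bone ECs, made libraries with the TruSeq Stranded Total RNA kit, mapped reads to GRCm38 (mm10) with TopHat and counted them per gene with HTSeq 0.6.1. The deposited values are FPKM, made by a step not given in the sources used here, and the unit of the Yap1/Taz files, which have no header, was read from steps in their low values. DESeq2 is named in the submitters' processing notes, and counts were not analysed here. Reads were recovered as FPKM times exon length (GENCODE M21) over the value of 1 read, and 62.3% to 70.2% of values of up to 20 reads lay within 0.02 of a whole read, so they are approximate.

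Each of the 3 comparisons was tested within its table with limma 3.58.1 (R 4.3.3) on log2(FPKM + 1) over genes that averaged 1 FPKM or more, with a mean-variance trend and 1 term for the group. P-values are two-sided, with Benjamini-Hochberg adjustment over all genes tested. Tables were joined with Python 3.11.15, pandas 2.3.3 and numpy 2.4.6, and plots used matplotlib 3.10.9. In simulated data with 200 changed genes per comparison, the test recovered 81.5%, 86.5% and 49% of them for the bmEC, Yap1/Taz and Lats2 comparisons. It recovered 95%, 99% and 86% of those changed by 2 on the log2 scale, and 68%, 74% and 12% of those changed by 1. Of the genes left unchanged, 17, 11 and 19 were also called in the bmEC, Yap1/Taz and Lats2 comparisons. The simulated spread was set in advance and not fitted to these libraries. Between replicates of a group the chi-square of counts was 3.35 to 33.9 per degree of freedom, so none of these pairs agreed within sampling noise.

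Members and lists were chosen with earlier results of these data known. Named are the 5 members, the targeted genes, up to 3 called genes per list and comparison with the largest change, and for Cyr61 and Ctgf the 3 genes with the most similar pattern. The values of 1 gene that this rule names are not reported here. Gm15270, Gm23935, Wisp3, in bmECs Ibsp and, in the Lats2 set, Pdgfrb, Cspg4, Pdgfra, Myh11, Cxcl12, Lepr, Adipoq and Col1a1 were named after their values were seen. The alternatives were pseudocounts of 0.1 and 0.5, a filter at 5 FPKM or none, other scalings, no trend, array weights, limma-voom on recovered reads, the replicate block, a stricter threshold and leaving out each library.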

Additional observations from a re-analysis of the deposited data

How the results depend on the processing

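Wisp1 in bmECs against mpECs kept its direction and its call under all alternatives in which it was tested. The filter at 5 FPKM left it out, since its mean over the libraries was lower. Of the tested members, only Ctgf in bmECs changed direction under any alternative. Leaving out 1 library at a time, the log2 fold change in bmECs ranged from 0.024 to 0.94 for Cyr61, from -0.31 to 0.12 for Ctgf, which reversed only without bmEC replicate 3, and from -0.82 to -0.44 for Nov. It ranged from -1.31 to -0.52 for Ctgf in the Yap1/Taz set. In the Lats2 set it ranged from 3.12 to 3.88 for Cyr61, 2.20 to 3.02 for Ctgf, 1.02 to 1.25 for Nov and 1.36 to 1.73 for Wisp1. Limma-voom on recovered reads gave -1.29 for Nov in bmECs. At an adjusted p under 0.01 and a log2 fold change over 0.5, Ctgf (2.61), Nov (1.14) and Wisp1 (1.54) in the Lats2 set were no longer called, and Cyr61 was. The causes of these moves were not tested.

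Same-numbered libraries had correlations of deviations of 0.307, 0.0876 and 0.102 (mpEC and bmEC), and differently numbered ones of -0.206 to 0.115. In the Yap1/Taz set these were -0.175 to -0.123 and -0.154 to 0.235, so same-numbered libraries were not more alike. In the Lats2 set they were 0.0651 and -0.0651, equal in size because each group has 2 libraries, so they cannot decide it. Whether the mpEC and bmEC numbers pair libraries cannot be told from so few values. With the replicate block, Cyr61 in the Lats2 set had an adjusted p of 0.00221, and no member's call changed. In the Yap1/Taz set 29 genes were then called higher and 16 lower in place of 100 and 48. In bmECs the counts were 1597 and 1475 in place of 1481 and 1201.

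Counts over all genes moved more. Over the alternatives at the same threshold, genes called by limma in the Yap1/Taz set ranged from 1 to 693 against 148. In the Lats2 set they ranged from 0 to 3301 against 2711, and without control replicate 1 or 2 the count of 0 stood beside 2724 and 2878 genes at an unadjusted p under 0.05. In bmECs they ranged from 1817 to 3074 against 2682. At the stricter threshold, 744 were called higher and 591 lower in bmECs against 1481 and 1201, 106 and 151 in the Lats2 set against 1468 and 1243, and 0 and 1 in the Yap1/Taz set. Depth is lowest for Nov, Wisp1 and Wisp2, which rested on under 50 reads in many libraries. In the mpEC and bmEC libraries Ctgf was also shallow, at 29 to 56 reads.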

Other observations

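Over all 16 libraries, each centred on the mean of its table, the patterns of Cyr61 and Ctgf were less like each other than like many other genes. Likeness was the root mean square (RMS) difference of log2(FPKM + 1) among the 9468 genes tested in all 3 comparisons, a description with no test. It depends on the size of a gene's changes as well as on their direction. The 3 genes most like Cyr61 were Adm, which encodes the vessel-active peptide adrenomedullin (RMS difference 0.424), Mgp, an inhibitor of calcification (0.460), and Crip1, a LIM domain protein (0.464). Ctgf stood at place 197 (0.756), closer to Cyr61 than the median gene (1.02). The 3 genes most like Ctgf were Mt1, a metallothionein (0.404), Kdelr3, a receptor that returns proteins to the endoplasmic reticulum (0.409), and Bmp4, a bone morphogenetic protein (0.446). Cyr61 stood at place 1912 (0.756), also closer to Ctgf than the median gene (0.845). The points share libraries and their scaling. Adm was 6.26 and 8.03 FPKM in the Lats2 controls and 109 and 311 in the Lats2 iΔEC libraries, and it was 13.2, 13.6 and 7.69 FPKM in bmEC replicates 1 to 3, where Cyr61 was also lowest in replicate 3. Bmp4 was 6.05 and 6.35 FPKM in the Lats2 controls and 25.7 and 53.6 in the Lats2 iΔEC libraries.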
